A study of Mus musculus with 6 samples.

Results

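The genes described here are 10 genes of the circadian clock, Per1, Per2, Per3, Cry1, Cry2, Clock, Arntl (also named Bmal1), Nr1d1, Nr1d2 and Dbp. They were taken by symbol, and all 10 were found among the 14051 genes of the table. Bulk RNA-Seq counted their transcripts in 6 libraries of donor CD8+ T cells, the cytotoxic lineage, sorted from BM after BMT. All recipients were irradiated B6D2F1 mice that had received purified T cells of B6.CD45.1 donors, a model of haploidentical transplantation. In the GC-treated group, with 3 libraries, recipients were given dexamethasone, a synthetic glucocorticoid, at 5 mg/kg/day from day -1 to day 5. In the vehicle-treated group, also with 3 libraries, they were given methyl-β-cyclodextrin alone over the same days. The cells were collected on day 5 and had been marked by an antibody injected shortly before, so they were inside BM vessels at that moment. BM of 2 to 3 mice was pooled per biological group, and whether the libraries of a group came from separate pools is not stated, so p-values measure the spread between these libraries, which may be technical. Neither the ages of the mice nor the hour of collection, on which clock transcripts depend, could be taken from the sources.

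The mammalian clock is a feedback loop of transcription that runs in most cells, T cells included, with a period of about a day. CLOCK and BMAL1 pair and activate genes that carry an E-box, among them the Per and Cry genes and Nr1d1, and the PER and CRY proteins return to the nucleus and inhibit the pair. REV-ERBα and REV-ERBβ, the products of Nr1d1 and Nr1d2, repress Arntl, and DBP activates genes that carry a D-box, such as Per3. Glucocorticoids are known to reset clocks of peripheral tissues, and Per1 is a direct target of the glucocorticoid receptor in mouse and human cells.

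The elements through which these factors act were looked for in RefSeq promoter windows, which run from 250 bases before to 50 bases after a start. The table of windows (GRCm38.p6) held 13 windows of 9 members and none of Per2. Both strands were searched for the E-box letters CACGTG, the D-box letters TTATGTAA and AGGTCA, the half-site that REV-ERB proteins recognize. E-box letters were in 2 of the 13 windows, of Per1 and Cry1, against 7.15% of all 32851 windows. D-box letters were in 1 of the 13, of Per3, against 0.938% of all windows. The half-site was in 4 of the 13, of Arntl, Clock, Nr1d2 and Per1, against 16.3%, and it overlapped neither of the other motifs. A match describes these letters and is not evidence of binding. The stretches below show examples of each arm of the loop, with the motif in capitals, 5′ to 3′ on the gene's strand, at positions found by exact match in GRCm39. Starts are those of the windows and can differ from the Gencode gene bounds given further below. The E-box stretches of Per1 and Cry1 lie inside those bounds.

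Per1 E-box, 166 bases before the start, chr11:68989589-68989634, plus strand: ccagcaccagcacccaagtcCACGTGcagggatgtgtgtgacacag
Cry1 E-box, 60 bases before the start, chr10:85020953-85020998, minus strand: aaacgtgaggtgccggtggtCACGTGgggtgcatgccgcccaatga
Per3 D-boxes, 205 and 158 bases before the start, chr4:151129253-151129347, minus strand: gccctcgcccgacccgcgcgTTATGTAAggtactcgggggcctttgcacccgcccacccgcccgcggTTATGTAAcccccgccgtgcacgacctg
Nr1d2 half-site, 77 bases before the start, chr14:4230493-4230538, plus strand: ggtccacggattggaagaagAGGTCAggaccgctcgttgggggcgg
Arntl half-site, 32 bases after a start, chr7:112806737-112806766, plus strand: aaggcagaaagtAGGTCAgggacggaggtg

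Reads on genes summed to 67887570 to 76888118 per library with GC treatment and to 60949593 to 64801008 with vehicle. They carried the CD8 T cell genes (Cd8b1 at normalized counts of 86959 to 109279 with GC treatment and 86287 to 98550 with vehicle). Cd4 was at 86.3 to 164 with GC treatment and 97.1 to 178 with vehicle. Of the 6 tested genes of the CD4 T cell list, Cd4 included, 6 had negative log2 fold changes, against 51.5% of all tested genes. At an unadjusted p under 0.05 from limma, 2 of the 6 were lower with GC treatment, against 5.07% of all tested genes. Groups did not overlap for 2 of the 6, both lower with GC treatment, against 6.40%. Summed neutrophil markers, 8 of 10 of which were in the table, ranged from 1505 to 12247 in GC-treated libraries and from 438 to 3423 in vehicle-treated ones, and 5 of the 8 were higher with GC treatment at an unadjusted p under 0.05 from limma, against 2.12% of all tested genes. Summed erythroid markers, 5 of 7 of which were in the table, ranged from 264 to 349 in GC-treated libraries and from 376 to 771 in vehicle-treated ones. Summed monocyte and macrophage markers, 5 of 8 of which were in the table, ranged from 519 to 588 in GC-treated libraries and from 686 to 912 in vehicle-treated ones. Of those 5, 2 had positive and 3 negative log2 fold changes. Groups did not overlap for 1 of the 5, which was lower with GC treatment, against 6.40% of all tested genes. The part of these cells in the clock gene values was not tested. GC-treated 3 was the lowest of the 6 libraries for 29.5% of the tested genes and the highest for 28.4%, against 11.1% to 18.1% and 11.1% to 18.9% for the other 5. Leaving out GC-treated 1 gave 2 genes higher and 43 lower in GC-treated cells over the whole table, where all 6 libraries gave 0. Values with 1 of these libraries left out are therefore given beside the fold changes of the members and some of their correlations.

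Cry1, which encodes a cryptochrome that represses the CLOCK and BMAL1 pair, was the most abundant of the 10 transcripts once exon length was taken into account. Its level was 509 ± 81.8 normalized counts per kb of exon in GC-treated cells and 446 ± 59.2 in vehicle-treated cells (SD, n = 3 each). The level of Cry2, its paralog, was 87.3 ± 2.79 per kb in GC-treated cells and 100.2 ± 9.80 in vehicle-treated cells (SD, n = 3 each). Per2, Arntl, Clock, Nr1d2 and Per1 followed, with means over all libraries of 71.0, 70.9, 63.2, 57.7 and 48.3 per kb, and neighbours in that order overlapped. The level of Dbp was 17.4 per kb, below every library of Per1. Nr1d1, at 6.65, and Per3, at 5.28, were the lowest and overlapped each other. Lengths were the union of annotated exons, and exon bases shared with other genes were not taken out. With the length of the canonical transcript, chosen after the data were seen, Cry1 was still the highest, at 780 per kb, Arntl stood next to Cry2, at 192 and 195, and Per3, at 9.21, lay above Nr1d1, at 7.92.

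**Figure D1:**
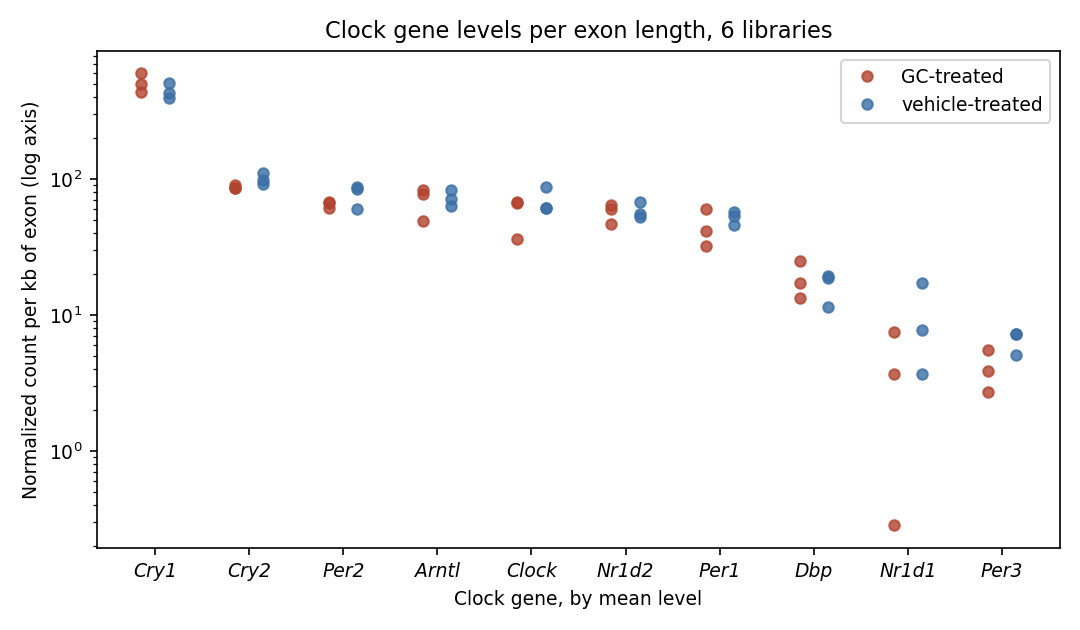
Normalized count per kb of exon (log axis) of the 10 clock genes, ordered by their mean over 6 libraries. Points are libraries, with GC-treated libraries left of vehicle-treated ones for each gene, and Cry1 stands alone at the top while Dbp, Nr1d1 and Per3 lie lowest.

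None of the 10 clock genes passed the test between GC-treated and vehicle-treated cells. All 10 passed the filter on low values, and 0 were called by limma at an adjusted p under 0.05, as were 0% of all 11649 tested genes. At an unadjusted p under 0.05 there were 0 higher and 0 lower members, against 2.12% of tested genes that were higher and 5.07% that were lower. edgeR and DESeq2 on recovered reads also gave 0 members, adjusted or unadjusted. Per3, with the smallest p of the members, had an unadjusted p of 0.12. Log2 fold changes were negative for 8 members and positive for 2, with a median of -0.21, against a median of -0.0079 over all tested genes, of which 51.5% were negative. In these bulk libraries, fewer cells with a transcript and less RNA per cell cannot be told apart. With 3 libraries a group, the smallest p that an exact permutation test allows is 0.1.

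**Figure D2:**
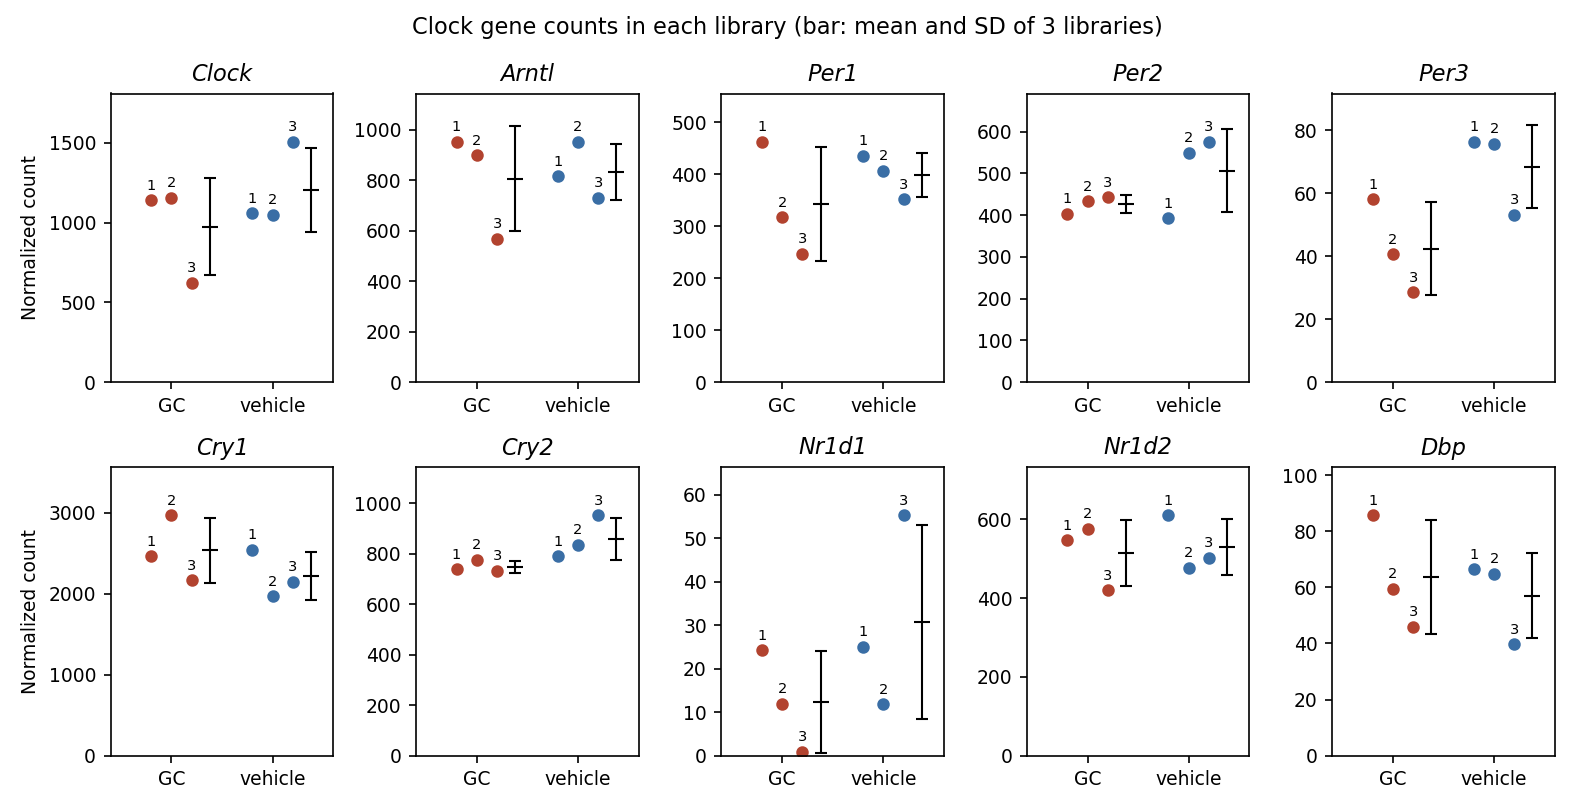
Normalized counts of each clock gene in each library, with GC-treated libraries left of vehicle-treated ones. Points are libraries, numbered by replicate, and the bar beside them is the mean and SD of 3 libraries. The counts of the groups overlap for every gene except Cry2.

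Clock (chr5:76342860-76452846, minus strand, in GRCm39 as for all genes here) encodes the activator that pairs with BMAL1. It had counts, normalized for depth, of 1140, 1157 and 623 in GC-treated 1, 2 and 3, against 1060, 1049 and 1508 in vehicle-treated 1, 2 and 3. GC-treated 3 was far below the other libraries and vehicle-treated 3 above them, and the groups overlapped. Its log2 fold change was -0.34 (standard error 0.25, 95% interval -0.92 to 0.23, adjusted p = 0.66 from limma), and it was -0.48 without GC-treated 1, -0.048 without GC-treated 3 and -0.17 without vehicle-treated 3. Clock shares 11.9% of its exon bases with Tmem165 on the opposite strand, and the kit does not mark strand, so reads there could come from either gene.

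Arntl (chr7:112806152-112914735, plus strand) encodes BMAL1. It had counts of 953, 899 and 569 in GC-treated cells and at 817, 952 and 731 in vehicle-treated cells. GC-treated 3 was again the lowest library, while GC-treated 1 and vehicle-treated 2 were almost level at the top. The log2 fold change was -0.074 (standard error 0.21, 95% interval -0.56 to 0.41, adjusted p = 0.91 from limma). It was -0.21 without GC-treated 1, and it turned to 0.16 without GC-treated 3 and to 0.026 without vehicle-treated 2.

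The period genes Per1 (chr11:68986035-69002300, plus strand), Per2 (chr1:91343700-91387069, minus strand) and Per3 (chr4:151081373-151129140, minus strand) encode the PER proteins that carry the inhibitory signal of the loop. Per1 had normalized counts of 462, 317 and 247 in GC-treated cells, against 435, 406 and 352 in vehicle-treated cells, so both the highest and the lowest library were GC-treated. Its log2 fold change was -0.26 (standard error 0.25, 95% interval -0.82 to 0.30, adjusted p = 0.72 from limma). Without GC-treated 1 it was -0.50 with an unadjusted p of 0.049 from limma (adjusted p = 0.24), the only member under 0.05 in that fit, in which 12.2% of all tested genes were lower at that p. Without GC-treated 3 it was -0.050.

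Per2, the period gene whose protein is central to the repressing complex in mice, was at 403, 434 and 443 in GC-treated cells and at 393, 549 and 576 in vehicle-treated cells. The GC-treated libraries lay close together, and vehicle-treated 1 fell below all of them. Between groups the log2 fold change was -0.23 (standard error 0.19, 95% interval -0.66 to 0.20, adjusted p = 0.69 from limma). It was -0.19 without GC-treated 1 and -0.25 without GC-treated 3, and it ranged most with the vehicle-treated libraries, from -0.40 without vehicle-treated 1 to -0.12 without vehicle-treated 3.

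Per3, a period gene that the mouse clock can run without, had counts of 58.0, 40.7 and 28.5 in GC-treated cells, against 76.3, 75.7 and 53.2 in vehicle-treated cells. Only GC-treated 1 and vehicle-treated 3 overlapped. Its log2 fold change was -0.72 (standard error 0.42, 95% interval -1.67 to 0.24, adjusted p = 0.63 from limma), -0.97 without GC-treated 1 and -0.47 without GC-treated 3. These counts rest on 31 to 67 reads with GC treatment and 51 to 70 with vehicle.

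The cryptochromes, encoded by Cry1 (chr10:84967560-85021252, minus strand) and Cry2 (chr2:92233894-92264474, minus strand), are the main repressors of the loop. Cry1 had counts of 2466, 2970 and 2164 in GC-treated cells and at 2541, 1965 and 2146 in vehicle-treated cells, with GC-treated 2 the highest and vehicle-treated 2 the lowest. The log2 fold change was 0.19 (standard error 0.15, 95% interval -0.15 to 0.52, adjusted p = 0.68 from limma). Without GC-treated 1, 2 or 3 it was 0.20, 0.067 or 0.30. Cry2 had counts of 739, 777 and 733 in GC-treated cells, against 791, 836 and 954 in vehicle-treated cells. It was the 1 member whose groups did not overlap, and it was lower in GC-treated cells by a log2 fold change of -0.19 (standard error 0.14, 95% interval -0.50 to 0.11, adjusted p = 0.65 from limma). This value was -0.18 without GC-treated 1, -0.18 without GC-treated 3 and -0.12 without vehicle-treated 3. Of all tested genes, 6.40% had groups that did not overlap with the GC-treated one lower, and 6.40% with it higher, so 1 of 10 members is near that background.

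**Figure D3:**
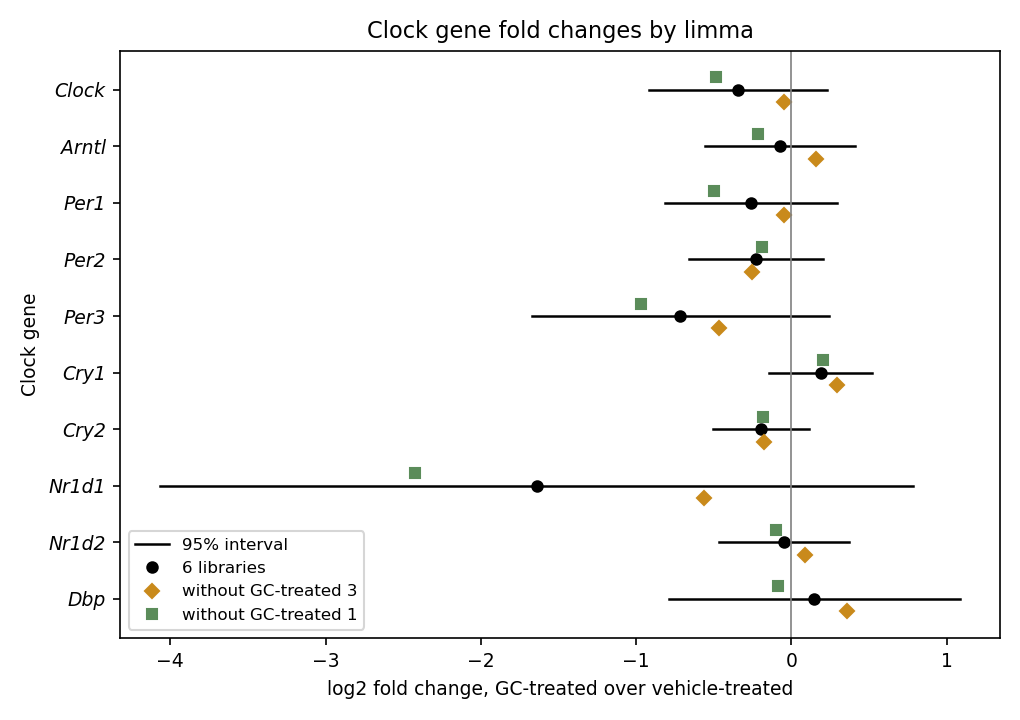
Log2 fold change of each clock gene, GC-treated over vehicle-treated, by limma. Circles use 6 libraries with their 95% interval, squares leave out GC-treated 1 and diamonds leave out GC-treated 3. Every interval includes 0, and the diamonds of Arntl and Nr1d2 and the square of Dbp lie on the other side of 0 from their circles.

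Nr1d1 (chr11:98658752-98666188, minus strand) encodes REV-ERBα, the repressor of Arntl whose transcript swings widely over the day in many tissues. It was scarce in these cells, with counts of 24.2, 11.9 and 0.919 in GC-treated cells and 25.1, 11.9 and 55.3 in vehicle-treated cells. The lowest value was a single read, and vehicle-treated 3 held 53 reads. The log2 fold change was -1.64 (standard error 1.07, 95% interval -4.07 to 0.79, adjusted p = 0.63 from limma), and it depended on the pseudocount, at -1.13 with a pseudocount of 5 and -1.78 with 0.5, and on the model, at -1.31 in DESeq2 and -0.0054 after shrinkage with ashr. Without GC-treated 3 it was -0.56 and without GC-treated 1 it was -2.42. Nr1d1 shares 52.3% of its exon bases with Thra, the thyroid hormone receptor gene on the opposite strand, the largest such share of the 10. As for Clock, reads there could come from either gene. How such reads were counted was not examined, so the level of Nr1d1 per kb is uncertain.

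Nr1d2 (chr14:4230545-4266624, plus strand), which encodes REV-ERBβ, was far more abundant than its paralog, at 56.8 ± 9.18 per kb against 3.81 ± 3.60 in GC-treated cells and at 58.6 ± 7.85 against 9.49 ± 6.86 in vehicle-treated cells (SD, n = 3 each). It had counts of 546, 577 and 420 in GC-treated cells, against 611, 477 and 503 in vehicle-treated cells. The groups were interleaved, with GC-treated 3 the lowest. The log2 fold change was -0.049 (standard error 0.19, 95% interval -0.47 to 0.37, adjusted p = 0.94 from limma), it was -0.099 without GC-treated 1, and it turned to 0.090 without GC-treated 3 and to 0.057 without vehicle-treated 1.

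Dbp (chr7:45354512-45359627, plus strand) encodes a transcription factor that is a direct output of CLOCK and BMAL1. It had counts of 85.7, 59.5 and 46.0 in GC-treated cells and 66.5, 64.9 and 39.6 in vehicle-treated cells. The highest library was GC-treated 1 and the lowest was vehicle-treated 3, with the rest between them. Its log2 fold change was 0.15 (standard error 0.41, 95% interval -0.79 to 1.08, adjusted p = 0.91 from limma). Leaving out GC-treated 1 turned it to -0.085 and leaving out vehicle-treated 3 turned it to -0.089, while it was 0.36 without GC-treated 3. Dbp shares 15.5% of its exon bases with Sphk2 on the opposite strand.

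Libraries of the same group varied by unlike amounts in the clock genes. Of the 10, 9 had a residual SD above the median of all tested genes, 0.18 on the log2 scale. Cry2 was the exception, at 0.10, and Nr1d1 had the highest, at 1.56. Cry1, Nr1d2 and Per2 lay close to the median, at 0.21, 0.22 and 0.22, or percentiles 57.0, 58.7 and 58.8. That median is not matched for expression level. The coefficient of variation over 6 libraries, both groups together, ran from 10.2% for Cry2 to 87.3% for Nr1d1, with 21.8% for Per1 and 34.3% for Per3. Counting noise alone would give 3.52% for Cry2, 21.7% for Nr1d1, 5.18% for Per1 and 13.5% for Per3.

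Most members were lowest in the same library. GC-treated 3 was the lowest library for 7 of the 10 members, against 29.5% of all tested genes. These 7 were Per1, Per3, Cry2, Clock, Arntl, Nr1d1 and Nr1d2, and for Cry1, Per2 and Dbp GC-treated 3 also lay below the mean. So 10 of 10 members were below their own mean there, against 49.4% of all tested genes. The median log2 deviation of the members was 0.13, -0.010 and -0.42 in GC-treated 1, 2 and 3, against 0.15, 0.10 and -0.011 in vehicle-treated 1, 2 and 3. Over all tested genes the median deviation of GC-treated 3 was 0.0045. The deviation there was -0.86 for Per3 and -0.76 for Clock but -0.058 for Per2 and -0.12 for Cry1, so the members were not low by a common factor. Without GC-treated 3, log2 fold changes were negative for 6 and positive for 4 members, with a median of -0.049. Neutrophil markers summed to 8639 in GC-treated 3, which lies between the 12247 of GC-treated 2 and the 1505 of GC-treated 1, and their part in the clock gene values was not tested.

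**Figure D4:**
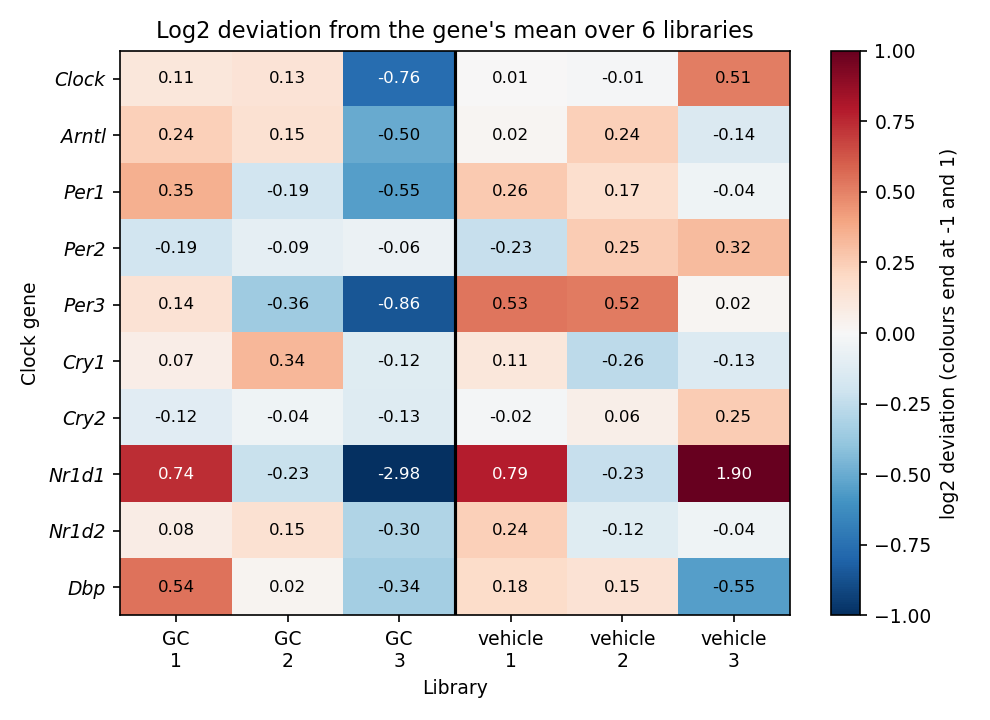
Log2 deviation of each clock gene from its own mean over 6 libraries, with GC-treated libraries left of the line and vehicle-treated libraries right of it. Each cell prints its value, colours end at -1 and 1, and the column of GC-treated 3 is negative for all 10 genes.

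Pairs of members were compared over the 6 libraries as a description. Of 45 pairs, 37 had a positive and 8 a negative Pearson r of log2 values, with a median of 0.50. The highest were Clock with Nr1d1 (r = 0.95, Spearman's rho = 0.77, n = 6) and Per1 with Per3 (r = 0.91, rho = 0.83, n = 6), and the lowest was Per2 with Cry1 (r = -0.68, rho = -0.77, n = 6). All pairs share the same libraries. Without GC-treated 3, 21 pairs were positive and 24 negative, with a median of -0.075 (n = 5). Arntl with Dbp was at 0.75 (n = 6), and at 0.83 without that library. Per2 with Nr1d2 was at -0.48, and at -0.88 without it. Arntl and Nr1d1 were at 0.56 (rho = 0.029, n = 6), and at -0.815 without GC-treated 3, where both were lowest (n = 5). Nr1d1 rested on 11 to 53 reads in those 5 libraries. The lowest pair without GC-treated 3 was Cry2 with Dbp, at -0.92 (n = 5).

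The genes whose levels most resembled those of a member were taken from 9676 other genes with a mean normalized count of at least 100. For Per1 they were Nf2, Parn and Gtf2a1, with r of 0.998, 0.995 and 0.994 over 6 libraries. For Dbp they were Nrn1, Nsmf and Kctd7, at 0.984, 0.980 and 0.977. For Arntl they were St3gal5, Mid1 and Fig4, at 0.989, 0.989 and 0.988. They were picked as the highest of 9676 genes over only 6 libraries, which favours high values. The genes listed for Per1 and for Arntl were lowest in GC-treated 3, as were Per1 and Arntl themselves. Values without that library were not computed here. Of the 9676, 525 genes had an r above 0.9 with Per1, 35 with Dbp and 186 with Arntl.

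Other transcription factors of the clock were on a list of 12. Of these, 11 were in the table and 7 were tested, and 0 passed the adjusted test. Ciart, which encodes CHRONO, a repressor of the CLOCK and BMAL1 pair, had normalized counts of 246, 292 and 360 in GC-treated cells, against 183, 240 and 137 in vehicle-treated cells. Its groups did not overlap, and GC-treated 3, where most members were lowest, was its highest library. The log2 fold change was 0.70 (standard error 0.27, unadjusted p = 0.029, adjusted p = 0.62 from limma). Bhlhe40, which encodes DEC1, a competitor at E-boxes, was at 13497 ± 711 in GC-treated cells and 11688 ± 1286 in vehicle-treated cells (SD, n = 3 each), a log2 fold change of 0.21 (adjusted p = 0.62 from limma). Tef, a D-box activator related to DBP, was at 1383 ± 139 in GC-treated cells and 1127 ± 209 in vehicle-treated cells (SD, n = 3 each), a log2 fold change of 0.31 (adjusted p = 0.62 from limma). Ciart, Bhlhe40 and Nfil3, the last encoding a D-box repressor and named after its values were seen, were the 3 of 7 whose groups did not overlap, all higher in GC-treated cells, against 6.40% of all tested genes. The median log2 fold change of the 7 was 0.20. The list was chosen with earlier results of these data known, so this count is a description. Npas2, the paralog of Clock, was too low to be tested and reached at most 17.5 in GC-treated cells and 23.8 in vehicle-treated cells.

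**Figure D5:**
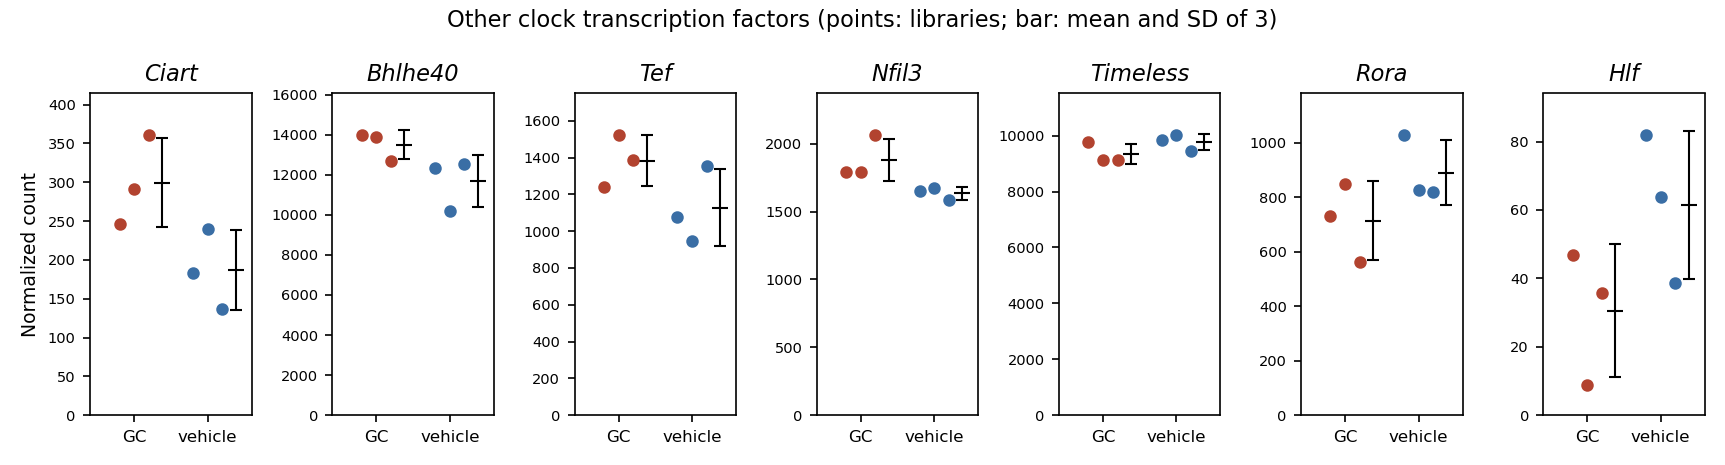
Normalized counts of 7 tested clock transcription factors outside the 10 members, with GC-treated libraries left of vehicle-treated ones. Points are libraries and the bar beside them is the mean and SD of 3 libraries. Ciart, Bhlhe40 and Nfil3 have groups that do not overlap.

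Enzymes that modify clock proteins were on a list of 15, of which 14 were tested. Of these kinases, ubiquitin ligases and deubiquitinases, 0 passed the adjusted test, and 0 were higher and 2 lower at an unadjusted p under 0.05, against 2.12% higher and 5.07% lower over all tested genes. Csnk2a1, a catalytic subunit of casein kinase 2, was at 3106 ± 623 in GC-treated cells and 4154 ± 620 in vehicle-treated cells (SD, n = 3 each), a log2 fold change of -0.43 (adjusted p = 0.62 from limma). Huwe1, a ubiquitin ligase, was at 5086 ± 1283 in GC-treated cells and 6810 ± 496 in vehicle-treated cells (SD, n = 3 each), a log2 fold change of -0.45 (adjusted p = 0.62 from limma). Csnk2a2, the other catalytic subunit, had a log2 fold change of 0.24. The median of the 14 was -0.052. Groups did not overlap for 3 of the 14, all lower in GC-treated cells, against 6.40% of all tested genes.

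Among 12 cofactors of clock transcription, 9 had negative and 3 positive log2 fold changes, with a median of -0.18, and 0 passed the adjusted test. Ep300 and Crebbp encode histone acetyltransferases that coactivate CLOCK and BMAL1. Ep300 had normalized counts of 5596, 4237 and 2599 in GC-treated cells, against 6194, 5999 and 5086 in vehicle-treated cells, a log2 fold change of -0.54 (unadjusted p = 0.0496, adjusted p = 0.62 from limma). Crebbp had a log2 fold change of -0.44 and Ezh2, a histone methyltransferase, of -0.23. GC-treated 3 was the lowest library for Ep300 and Crebbp, as for 7 of the members. Of 10 output genes of the clock, 7 had positive and 3 negative values, with a median of 0.18. Groups did not overlap for 0 of the cofactors. They did not overlap for 2 of the output genes, Ciart and Nfil3, both higher in GC-treated cells, against 6.40% of all tested genes. Hlf, a PAR-bZIP factor like Dbp and Tef, was at 46.8, 8.93 and 35.8 in GC-treated cells and at 81.8, 63.8 and 38.6 in vehicle-treated cells, a log2 fold change of -1.20 (adjusted p = 0.62 from limma).

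Per1 belongs to the glucocorticoid receptor's targets as well as to the clock. Of 15 genes on a list of the receptor and its targets, 12 were tested, 0 passed the adjusted test, and 2 were higher and 2 lower at an unadjusted p under 0.05, where the whole table had 2.12% higher and 5.07% lower. Of the 12, 1 was higher and 2 were lower with groups that did not overlap, against 6.40% of all tested genes in each direction. Log2 fold changes were negative for 8 of the 12 and positive for 4, with a median of -0.21. Il7r, the IL-7 receptor chain, had a log2 fold change of -1.05, Fkbp5, a chaperone of the receptor, of -0.59, and Dusp1, a phosphatase that shuts off MAP kinases, of 0.47 (adjusted p = 0.62 from limma for each). The receptor gene Nr3c1 had counts of 4726, 4821 and 3274 in GC-treated cells and 4568, 5192 and 4630 in vehicle-treated cells, and GC-treated 3 was its lowest library as it was for Per1.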

How the data were processed

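RNA-Seq was analysed from 6 libraries of sorted donor CD8+ T cells. The authors aligned reads with STAR to GRCm39 with a Gencode annotation, obtained gene counts with summarizeOverlaps and normalized them in DESeq2. Of these tools no version was found in the sources. The deposited values are a normalized signal, gene counts divided by 1 size factor per library. Every value was a whole multiple of its library's step (100% within 0.001 of a read), so reads were recovered for alternatives. For GC-treated 2 the step is so near 1 that an automatic check could not decide.

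Log2(value + 1) was fitted with limma 3.58.1 with a mean-variance trend in R 4.3.3 on the 11649 genes that reached 10 in 3 or more libraries. Benjamini-Hochberg adjustment ran over all of them, with a threshold of 0.05 and 95% intervals from the moderated fit. Fold changes are on that scale, and those of low genes depend on the pseudocount. Alternatives on recovered reads used edgeR 4.0.16 and DESeq2 1.42.0, with and without shrinkage by ashr 2.2.63. They stood beside other filters, pseudocounts and thresholds, a replicate block, and leaving out each library. The fits were tested on simulated data. Groups and replicate numbers were taken from the labels. Treatment details, such as the dose, the days and the vehicle, are those of the authors' methods. The members and lists were chosen with earlier results of these data known. Other genes named were up to 3 per list with the smallest p and the 3 most like Per1, Dbp and Arntl. Sums are given for the neutrophil, erythroid, and monocyte and macrophage marker lists only. No values are given for the B cell list. Cd8b1, Cd4, Nfil3, Nr3c1 and Npas2 were named after their values were seen. Gene positions and exons are from Gencode M39, which is newer than the annotation used for counting. Reads carry no molecular identifiers, so the counting noise given is that of reads, not molecules. No pair of libraries agreed within counting noise, so none was a repeat deposit of another. This does not show whether libraries shared a pool.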

Additional observations from a re-analysis of the deposited data

How the results depend on the processing

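No clock gene was called higher or lower under any other fit or threshold tried or when each library was left out, with adjusted p values from 0.24 for Per1 to 0.99 for Arntl. Over all tested genes, 0 were called in either direction by limma (247 higher and 591 lower at an unadjusted p under 0.05). DESeq2 called 2 lower (338 higher and 650 lower at that unadjusted p), limma without a trend called 1 lower, edgeR called 0 (265 higher and 442 lower at that unadjusted p), and leaving out 1 library gave 0 to 2 higher and 0 to 43 lower, the highest without GC-treated 1. Of 159 member values under other settings, 153 kept their sign and their side of the threshold and 6 changed sign: Arntl to 0.16 without GC-treated 3 and 0.026 without vehicle-treated 2, Nr1d2 to 0.090 without GC-treated 3 and 0.057 without vehicle-treated 1, and Dbp to -0.085 without GC-treated 1 and -0.089 without vehicle-treated 3. Over all left-out libraries Arntl ranged from -0.21 to 0.16, Nr1d2 from -0.14 to 0.090 and Dbp from -0.089 to 0.36. What moved them was not tested. The replicate block called 0 clock genes and 0 genes in all. Whether the numbers pair the libraries is not known. Same-numbered libraries had correlations of 0.063, -0.14 and 0.13. The libraries numbered 3 correlated best with each other, but not every library did so with its own number. With 3 libraries a group, this check cannot decide whether libraries shared an experiment. The correlations without GC-treated 3 and the canonical transcript lengths were chosen after seeing the data. Depth limits Nr1d1, with 1 to 53 reads, and Per3 and Dbp, with 31 to 99, most.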
